A study of Rattus norvegicus with 9 samples.

Results

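The lungs of mechanically ventilated rats were compared with those of spontaneously breathing rats at 21% and at 100% oxygen, and the transcripts described here are those whose level moved the same way with ventilation at both oxygen levels. A probe set is a group of short probes that together report 1 transcript, and some genes have several. Members were the non-control probe sets whose log2 change, ventilated minus spontaneous, lay above 0 at both oxygen levels or below 0 at both. Of 8740 non-control probe sets, 3056 (35.0%) met this rule, and 1220 had a change of exactly 0 at 1 or both levels. The 4 groups were spontaneous breathing with 21% oxygen, spontaneous breathing with 100% oxygen, mechanical ventilation with 21% oxygen and mechanical ventilation with 100% oxygen. Each held 2 samples of rat lung, letters a and b, and letter b of the ventilated 100% group was hybridised to 2 arrays that were averaged and counted once. The sources used here give neither strain nor age, and neither ventilator settings nor the time on the ventilator. Whether letters a and b are different rats is not stated, and the p-values therefore rest on a spread between samples that may be technical.

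Mechanical ventilation pushes gas into the lung under pressure, so epithelium, endothelium and matrix are stretched in a way that they are not during spontaneous breathing. Cells answer stretch, injury or wounding with immediate early genes, transcription factors that are induced without new protein synthesis, and later with secreted mediators, mucosal repair peptides and changes in metabolic enzymes. High oxygen adds oxidative stress of its own, which makes the part of the ventilation change that appears at both oxygen levels a separate question from the change at either level.

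Intensities are the deposited values on a linear scale, given per sample in the order spontaneous 21%, spontaneous 100%, ventilated 21% and ventilated 100%, with letter a before letter b. Changes are differences of log2(intensity + 40), a scale that understates those of dim genes, and are given ± SE over the 8 samples. The average change weights both oxygen levels equally, and a transcript is said to have risen or fallen on average where limma's Benjamini-Hochberg adjusted p over the 5244 tested probe sets was under 0.05. At least 18.4% of the probe sets of every array had a value of 0 or less, and the small number of arrays limits the precision. The lung identity of the samples was borne out by surfactant protein genes, with Sftpb between 4591 and 23281 and Sftpc between 3543 and 14817 in the 8 samples. In whole tissue, fewer cells of a type and less RNA per cell cannot be told apart. The sample descriptions split the arrays in another way: a line for a lot batch, with no lot given, stands on both spontaneous 21% arrays, on ventilated 100% letter a and on 1 array of ventilated 100% letter b, and is absent from the other arrays. Any difference between arrays with and without that line enters the ventilation changes at the 2 oxygen levels with opposite signs and nearly cancels in the average. For the genes the results turn on, the change is therefore also given within the arrays with the line (ventilated 100% minus spontaneous 21%) and within the arrays without it (ventilated 21% minus spontaneous 100%). These 2 values also differ in oxygen.

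A same direction at both oxygen levels was the less common case. Among the 5244 tested probe sets, 2065 (39.4%) had the same sign at both levels, 1137 higher and 928 lower with ventilation, and 3179 (60.6%) had opposite signs. The average change passed the threshold for 477 probe sets, 9.1% of those tested, and 377 of them (7.19% of those tested) had the same sign at both levels, 191 higher and 186 lower. The sign chose these members, so their agreement in sign is no result, whereas the average was tested over all probe sets whatever their signs. Leaving out spontaneous 21% letter a, spontaneous 100% letter b, ventilated 21% letter a, ventilated 21% letter b, ventilated 100% letter a or ventilated 100% letter b took the 377 to 167, 111, 112, 86, 156 and 231.

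Ventilation passed the threshold for 760 probe sets at 21% oxygen (14.5%) and for 1413 at 100% oxygen (26.9%). These comparisons share no sample, but they do share the estimate of the spread, which came from all 8 samples. Of the 357 that passed at both levels, 308 (86.3%) moved in opposite directions and 49 in the same direction, 27 higher and 22 lower. The 49 are 0.934% of the tested probe sets, 6.45% of those that passed at 21% and 3.47% of those that passed at 100%. They stood for 28 genes with a single symbol. Without spontaneous 100% letter b, ventilated 21% letter a, ventilated 21% letter b, ventilated 100% letter a or ventilated 100% letter b they were 21, 20, 15, 24 and 30, and with the lot line as a block 4. All 4 ventilated samples lay on 1 side of all 4 spontaneous samples for 286 of the tested probe sets (5.45%), and this held for 150 of the 377 and 30 of the 49. The 377 and the 49 were chosen by tests on these same samples, so their larger shares without overlap are no separate result. For single genes, a lack of overlap likewise only describes the values.

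**Figure D1:**
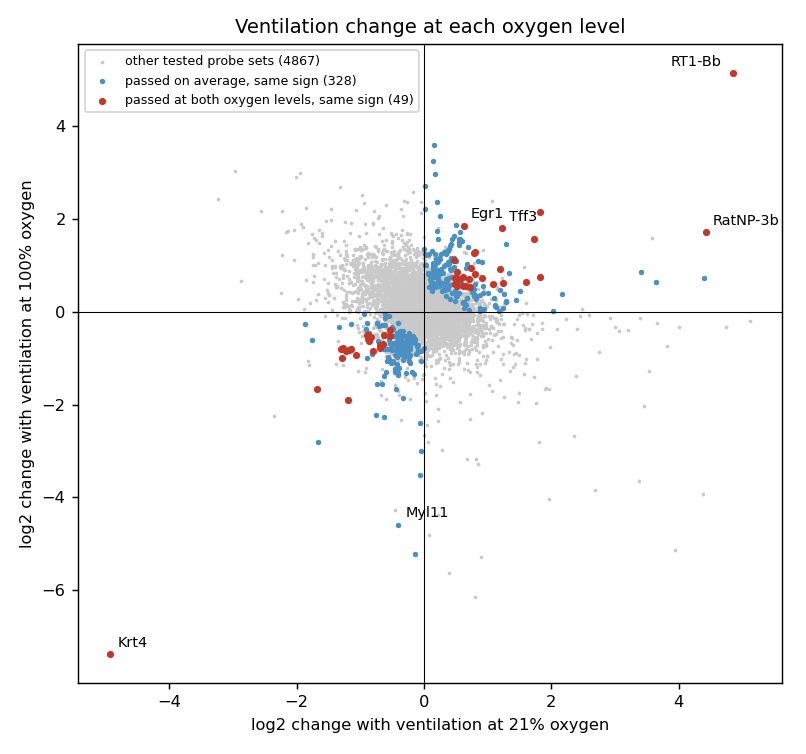
Each point is 1 of 5244 tested probe sets, with the log2 change with ventilation at 21% oxygen on the x axis and at 100% oxygen on the y axis. Red points (49) passed the threshold at both levels with the same sign and blue points (328) passed on average with the same sign, and the grey cloud runs from upper left to lower right, where the signs are opposite.

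The size of the change differed between oxygen levels for 88 of the 377 members that passed on average, and for the other 289 no difference was called. The difference of the 2 changes, tested as an interaction, passed for 1439 of all tested probe sets (27.4%) and for 6 of the 49. With the lot line as a block the interaction passed for 151 probe sets. Among the 377, the median absolute change was 0.428 at 21% and 0.76 at 100%, and the change was larger at 100% in 273 of them.

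The list of immediate early and stress-response genes held the largest number of members that rose, although not the largest share. Most of its members are transcription factors, but some, such as Gadd45a, are not. Of 30 tested members of this list, 9 passed on average as higher at both oxygen levels (Egr1, Egr2, Crem, Atf3, Nr4a1, Fos, Myc, Klf6 and Gadd45a) and 0 as lower, where 2.92% of the 3181 tested genes were higher in this way and 2.73% lower. Another 15 of the 30 had opposite signs at the 2 oxygen levels, and 2 of these passed on average. The same 9 and 0 were counted at an unadjusted p under 0.05. The median change of the list was 0.23 on average, -0.10 at 21% and 0.69 at 100%, beside 0.05, -0.05 and 0.11 for all tested genes. The count was 5 without spontaneous 21% letter a and 4 without ventilated 21% letter b.

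The promoters of Egr2 and Crem, of this list, and of the growth factor gene Areg are shown. Areg is of the list of matrix proteases and growth factors. The cyclic AMP response element and the CArG box are sites through which cyclic AMP and serum signals are known to act on early-response genes. Each stretch was picked to display a match, so the match in it is no result. Areg and Egr2 did not pass at both oxygen levels. The sequences are RefSeq's for the rat assembly GRCr8, read 5′ to 3′ on the gene's strand. Capitals mark a cyclic AMP response element (TGACGTCA) in Areg at chr14:17265702-17265761 on the minus strand, and a CArG box, the site of serum response factor, in Egr2 at chr20:21054502-21054561 on the minus strand. In Crem, at chr17:58934006-58934065 on the plus strand, they mark only TGACG, a part of TGACGTCA, and the full element is not in that stretch. A single annotated start per gene was searched, and promoters at any other start of Crem were not.
Areg: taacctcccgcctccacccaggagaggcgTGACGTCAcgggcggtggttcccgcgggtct
Egr2: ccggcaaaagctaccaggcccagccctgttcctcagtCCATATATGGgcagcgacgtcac
Crem: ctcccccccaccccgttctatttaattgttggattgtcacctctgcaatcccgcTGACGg
The Areg and Egr2 stretches run from 120 to 61 bases before the annotated start and that of Crem covers the 60 bases before it. Searched on both strands in the 250 bases before the start of 27457 rat genes, TGACGTCA lay in 1.7%, a CArG box in 1.5% and TGACG, which TGACGTCA contains, in 19.0%. Among all named genes with a promoter, TGACGTCA also lay in that of Hsp90ab1, a chaperone gene that fell. A CArG box also lay in those of Egr1, Klf6 and Mcm6. The number of named genes searched is not given here, so these matches cannot be set against the shares of all promoters. A promoter was matched for 24 of the 28 genes that passed at both oxygen levels. Of these, 0 held TGACGTCA, 2 a CArG box (Egr1 and Mcm6) and 6 TGACG, and the searches for TGANTCA (6.4% of all promoters), GCGTG (27.2%), GAANNTTC (7.0%) and GCGGGGGCG (2.5%) matched 1, 7, 0 and 1. A match is a string of letters in the window and says nothing of binding.

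Egr1, a zinc finger factor induced by stretch and growth signals, measured 997.2 and 1138 in spontaneous 21%, 1691 and 1640 in spontaneous 100%, 1580 and 1761 in ventilated 21%, and 6424 and 5833 in ventilated 100%. Both ventilated 100% samples lay far above the rest, and ventilated 21% overlapped spontaneous 100%. The average change was 1.24 ± 0.09 (limma, adjusted p = 2.6e-04), with 0.63 at 21% (adjusted p = 0.016) and 1.85 at 100% (adjusted p = 8.6e-05), and the 2 differed (interaction 1.23, adjusted p = 0.0024). Within arrays with the lot line the change was 2.49, and within those without it 0.00. A second probe set of Egr1 also rose on average (1.11 ± 0.15, adjusted p = 0.0053), with 0.02 at 21% and 2.21 at 100%. The other 2 did not pass (0.29 and -0.04, adjusted p = 0.47 and 0.94). Both had opposite signs, -0.72 and -1.11 at 21% and 1.30 and 1.02 at 100%, and so did not meet the rule. Egr2, a relative of Egr1, measured 134.5, 104.1, 79.6, 103.0, 160.2, 156.4, 315.0 and 243.0 in the same order, with every ventilated sample above every spontaneous one. Egr2 rose on average (0.80 ± 0.18, adjusted p = 0.035), 0.32 at 21% and 1.28 at 100%. That call was lost without any 1 sample except ventilated 100% letter b (adjusted p up to 0.11), and without the filter on dim probe sets (adjusted p = 0.071).

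Crem encodes activators and the inducible repressor of the cyclic AMP response, and it was larger at 21% than at 100%, the reverse of Egr1. Its brightest probe set read 302.4 and 318.6, 1600 and 1498, 1007 and 1038, and 2532 and 2351 in the 4 groups. Within each oxygen level both ventilated samples lay above both spontaneous ones, and across levels they overlapped, since spontaneous 100% was above ventilated 21%. The average change was 1.12 ± 0.09 (adjusted p = 3.6e-04), with 1.60 at 21% and 0.64 at 100% (adjusted p = 3.2e-04 and 0.010; interaction -0.96, adjusted p = 0.0062). Of the other 3 probe sets of Crem, 1 was too dim to be tested and 2 passed at both levels, of which 1 read 394.8, 339.6, 861.7, 758.3, 907.8, 867.8, 1647 and 1472 with no overlap. Its changes were 1.19 at 21% and 0.91 at 100%, whose difference of -0.28 had a 95% interval from -0.76 to 0.20. Within arrays with the lot line the brightest probe set changed by 2.84 and within those without it by -0.58.

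Atf3, a stress-induced repressor, read 486.6, 566.0, 1175, 1192, 842.9, 727.7, 3725 and 2907. It rose on average (0.99 ± 0.11, adjusted p = 0.0028), with 0.54 at 21%, which missed the threshold (adjusted p = 0.059), and 1.44 at 100%. Nr4a1, an orphan nuclear receptor, and Fos, a subunit of AP-1, belonged to the group by sign alone at 21%, where their changes were both 0.02 against 2.70 and 1.01 at 100%. A second probe set of Nr4a1 read 595.3 and 633.0, 650.2 and 688.5, 472.4 and 502.8, and 4055 and 3260, and had opposite signs (-0.31 and 2.37), so only 1 of its 2 probe sets met the rule. A second probe set of Fos lay just outside the rule (-0.01 and 1.60). Myc, a growth factor-induced regulator, changed by 0.27 at 21% and by 1.25 at 100%, and a dimmer probe set of Myc by -1.14 and 1.90 with no call on average (0.38, adjusted p = 0.65). For Atf3, Nr4a1, Fos and Myc the interaction passed (adjusted p = 0.022, 0.0014, 0.0051 and 0.018), and within arrays without the lot line their changes were -0.57, -0.55, -0.55 and -0.04. The averages of Atf3, Nr4a1 and Myc passed without any 1 sample, while that of Fos was lost without ventilated 21% letter b (adjusted p = 0.061). Gadd45a, a growth arrest and DNA damage gene, had 4 probe sets that all rose on average, by 0.36 to 1.38. The probe set that passed at both levels read 1088 and 1426, 1336 and 1362, 1939 and 2058, and 1979 and 2029, with no overlap between ventilated and spontaneous samples, and changed by 0.66 at 21% and 0.56 at 100% (adjusted p = 0.022 and 0.026). Its average of 0.61 ± 0.10 was lost without spontaneous 100% letter b or ventilated 21% letter b (adjusted p up to 0.061).

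Tff3 and 3 keratin genes of epithelium rose. Of 10 tested genes of the airway list 4 passed as higher (Tff3, Krt8, Krt18 and Krt19) and 0 as lower, beside 2.92% and 2.73% of all tested genes. At an unadjusted p under 0.05 the list held 4 and 1, and its median change was 0.20. Tff3, a trefoil peptide that mucosal cells secrete during repair, read 181.9 and 206.1 in spontaneous 21%, 138.5 and 162.0 in spontaneous 100%, 391.7 and 654.2 in ventilated 21%, and 668.3 and 593.4 in ventilated 100%. Every ventilated sample was above every spontaneous sample. The average change was 1.51 ± 0.18, or 2.85-fold (adjusted p = 0.0033), with 1.23 at 21% (adjusted p = 0.019) and 1.79 at 100% (adjusted p = 0.0034). The difference of 0.57 between levels had a 95% interval from -0.26 to 1.39. Within arrays with and without the lot line Tff3 changed by 1.68 and 1.53, and its average passed without any 1 sample.

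The simple epithelial keratins Krt8 and Krt18, which pair in 1 filament, moved less. Krt8 read 2104 and 1969, 1145 and 1144, 2425 and 2491, and 2227 and 2153, and Krt18 read 2281 and 2706, 1931 and 1611, 3204 and 2961, and 3046 and 3271. Neither overlapped between ventilated and spontaneous samples. Their averages were 0.59 ± 0.08 (adjusted p = 0.0047) and 0.57 ± 0.10 (adjusted p = 0.017), and for both the change passed at 100% (0.91 and 0.82) and not at 21% (0.27 and 0.31). The Krt18 average was lost without spontaneous 100% letter b, ventilated 21% letter a or ventilated 21% letter b (adjusted p up to 0.065) and without the filter (adjusted p = 0.055), while a second probe set of Krt18 rose by 0.70 ± 0.08 (adjusted p = 0.0027) and passed without any 1 sample. Krt19, a keratin of simple and airway epithelium, changed by 0.15 at 21% and 0.98 at 100%, an average of 0.56 ± 0.08 (adjusted p = 0.0064) with overlap between ventilated and spontaneous samples. Scgb1a1, the club cell secretory protein of the same list, changed by -0.24 ± 0.08 and did not pass (adjusted p = 0.10). Areg, the epidermal growth factor family ligand amphiregulin, was dim at 78.1, 102.2, 76.3, 37.0, 202.9, 142.2, 200.2 and 220.1. The ventilated samples were all higher, and the average change was 1.05 ± 0.22 (adjusted p = 0.028). That call was kept only without spontaneous 21% letter b or spontaneous 100% letter a (adjusted p otherwise up to 0.097), and it was lost without the filter (adjusted p = 0.077).

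**Figure D2:**
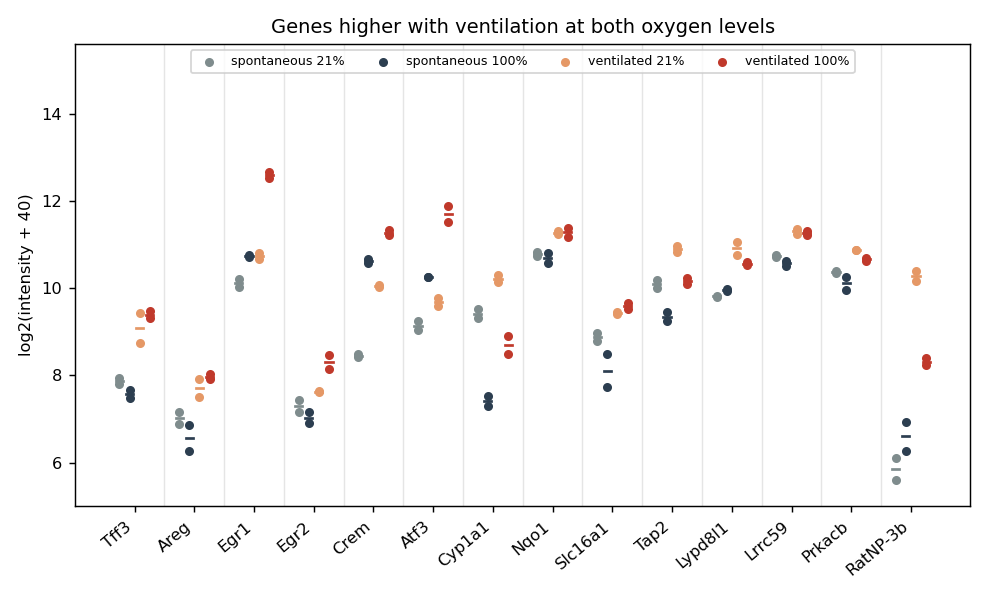
Each point is 1 sample, on the log2(intensity + 40) axis, for 14 genes whose mean was higher with ventilation at both oxygen levels, with bars at the mean of the 2 samples of a group. Within each gene the orange points lie above the grey ones (21% oxygen) and the red points above the dark ones (100% oxygen) on average, while for Egr1, Crem, Atf3, Cyp1a1 and Tap2 ventilated and spontaneous samples overlap across oxygen levels.

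Few enzymes of oxidation and detoxification passed with a shared sign. Of 34 tested members of the antioxidant and xenobiotic list, 3 rose on average with the same sign (Cyp1a1, Nqo1 and Sod2) and 1 fell (Gpx3). Among all tested genes 2.92% rose in this way and 2.73% fell, so the share that fell is near that of all genes. The list median was 0.03. Gpx3, the extracellular glutathione peroxidase, changed by -0.57 ± 0.12 (adjusted p = 0.028), and by -0.19 after quantile normalization (adjusted p = 0.056). That call was also lost without spontaneous 21% letter a or any 1 ventilated sample (adjusted p up to 0.098) and without the filter (adjusted p = 0.11). Cyp1a1, the cytochrome P450 induced through the aryl hydrocarbon receptor, read 695.4 and 596.5 in spontaneous 21%, 144.2 and 117.2 in spontaneous 100%, 1215 and 1083 in ventilated 21%, and 441.1 and 319.0 in ventilated 100%. It was higher with ventilation within each oxygen level and lower with 100% oxygen within each way of breathing, so ventilated 100% lay below spontaneous 21%. The average change was 1.04 ± 0.14 (adjusted p = 0.0055), with 0.80 at 21% and 1.29 at 100% (adjusted p = 0.038 and 0.0051). Within arrays with the lot line Cyp1a1 changed by -0.69 and within those without it by 2.80. Nqo1, a quinone reductase under the same receptor and Nrf2, read 1770 and 1682, 1483 and 1749, 2490 and 2368, and 2259 and 2646. All ventilated samples were higher, by 0.48 at 21% and 0.59 at 100% (adjusted p = 0.048 and 0.017), and the average of 0.54 ± 0.09 (adjusted p = 0.018) was lost without ventilated 21% letter a or letter b (adjusted p up to 0.067). Within arrays with and without the lot line it changed by 0.50 and 0.58. Sod2, the mitochondrial superoxide dismutase, read 1225 and 1338, 1273 and 1190, 2012 and 1970, and 1471 and 1350, an average of 0.41 ± 0.09 (adjusted p = 0.029), with 0.62 at 21% and 0.19 at 100%. All ventilated samples lay above all spontaneous ones, and the call on Sod2 was lost after quantile normalization (adjusted p = 0.083) and without spontaneous 21% letter a, spontaneous 100% letter b, ventilated 100% letter a or either ventilated 21% sample (adjusted p up to 0.094).

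Both probe sets of Cyp2a3 and the brightest of Cyp2b2, another cytochrome P450, fell. Cyp2a3, an enzyme of the nasal and lung epithelium, read 1452 and 1537, 1961 and 1930, 947.3 and 876.0, and 1211 and 1142, and a second probe set read 1326, 1420, 1508, 1866, 618.5, 584.6, 992.4 and 890.1. Neither probe set overlapped between ventilated and spontaneous samples. The first fell by 0.69 at 21% and by 0.71 at 100% (adjusted p = 0.0092 and 0.0060), a difference of -0.02 with a 95% interval from -0.40 to 0.37. Its average was -0.70 ± 0.08 (adjusted p = 0.0034), and it changed by -0.33 and -1.06 within arrays with and without the lot line. Cyp2b2, whose probe set may also read the near-identical Cyp2b1, read 15724 and 15130, 10058 and 12019, 8455 and 8447, and 6717 and 7640. All ventilated samples lay below all spontaneous ones, with an average change of -0.74 ± 0.09 (adjusted p = 0.0034), -0.86 at 21% and -0.62 at 100%. After quantile normalization the average of Cyp2b2 was -0.32 (adjusted p = 0.026). The averages of both Cyp2a3 probe sets and of this Cyp2b2 probe set passed without any 1 sample. Another Cyp2b2 probe set went opposite ways, -1.29 at 21% and 0.61 at 100% (adjusted p = 6.4e-04 and 0.010).

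The list of neutrophil and myeloid granule genes was not uniform, and it also holds Cd14, which is a receptor and not a granule gene. Of 9 tested, 3 passed as higher (RatNP-3b, Defa5 and Cd14) and 1 as lower (Lyz2, which is also a gene of alveolar type 2 cells and macrophages). Among all tested genes 2.92% passed as higher and 2.73% as lower. RatNP-3b, a neutrophil defensin, read 8.83 and 28.7 in spontaneous 21%, 37.3 and 83.1 in spontaneous 100%, 1117 and 1297 in ventilated 21%, and 295.2 and 263.2 in ventilated 100%. Its ventilated samples were all higher, with a change of 4.42 at 21% and 1.71 at 100% (adjusted p = 1.4e-04 and 0.0070), which differed (interaction -2.72, adjusted p = 0.0031). The spontaneous samples were so dim that the size depends on the offset, and the average was 3.88 with an offset of 1% of the trimmed mean and 2.54 with 10%, against 3.07 with the 5% used here. Within arrays with and without the lot line RatNP-3b changed by 2.46 and 3.67. Defa5, a defensin, read 102.4 and 189.4, 73.4 and 152.1, 511.9 and 341.6, and 239.4 and 209.8, and its average of 1.09 ± 0.25 (adjusted p = 0.037) was kept only without spontaneous 21% letter b (adjusted p otherwise up to 0.12). For Defa5 the adjusted p was also 0.054 after quantile normalization and 0.13 without the filter. Cd14, a receptor for bacterial lipopolysaccharide, rose by 0.40 ± 0.10 (adjusted p = 0.047), a call lost without any 1 sample (adjusted p up to 0.14) and after quantile normalization (adjusted p = 0.11). The calgranulin S100a9 (-0.27), the neutrophil collagenase Mmp8 (0.44) and the gelatinase Mmp9 (0.34) did not pass (adjusted p = 0.12, 0.060 and 0.13).

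Of 29 tested cytokine, chemokine and feedback genes, 1 passed as higher (Nfkb1) and 1 as lower (Ccl5) with the same sign, a share near that of all tested genes (2.92% and 2.73%), and 4 and 2 were counted at an unadjusted p under 0.05. Ccl5, an attractant of T cells, read 3351 and 3203, 1793 and 1695, 1919 and 2116, and 856.9 and 1160. It was lower with ventilation by 0.69 at 21% and 0.78 at 100% (changes of -0.69 and -0.78, adjusted p = 0.024 and 0.011), and lower with 100% oxygen within each way of breathing, so the groups overlapped across levels. The average of Ccl5 was -0.74 ± 0.11 (adjusted p = 0.0073) and passed without any 1 sample. Within arrays with the lot line it changed by -1.70 and within those without it by 0.20. Nfkb1, the p105 precursor subunit of NF-kappa B, read 1368 and 1264, 1183 and 923.8, 1278 and 1416, and 2214 and 2084, a change of 0.03 at 21% and 1.01 at 100%. Its average of 0.52 ± 0.10 (adjusted p = 0.026) was kept only without spontaneous 100% letter a (adjusted p otherwise up to 0.089) and was lost without the filter (adjusted p = 0.067). The endothelial adhesion molecule Selp read 386.6 and 369.9, 548.3 and 555.6, 793.6 and 665.8, and 742.2 and 696.3. All ventilated samples of Selp were above the spontaneous ones, with an average of 0.62 ± 0.11 (adjusted p = 0.018) that was lost without spontaneous 100% letter b, ventilated 21% letter a or ventilated 100% letter a (adjusted p up to 0.071). Tissue factor, F3, the initiator of coagulation, read 1909 and 1971, 1407 and 1367, 2084 and 2020, and 3444 and 3215 without overlap. Its average was 0.66 ± 0.08 (adjusted p = 0.0029), nearly all of it from 100% oxygen (0.08 at 21%, 1.24 at 100%), and it was 0.77 and 0.55 within arrays with and without the lot line.

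Antigen presentation held 1 of the most even changes. Tap2, a subunit of the peptide pump that feeds class I molecules, read 981.0 and 1122 in spontaneous 21%, 569.5 and 659.9 in spontaneous 100%, 1965 and 1767 in ventilated 21%, and 1162 and 1052 in ventilated 100%. It was higher in both ventilated groups within its oxygen level, and the ventilated 100% samples overlapped spontaneous 21%. The change was 0.81 at 21% and 0.81 at 100% (adjusted p = 0.011 and 0.0075), with a difference of 0.01 and a 95% interval from -0.46 to 0.48. Within arrays with the lot line it was 0.09 and within those without it 1.54. In the interferon and antigen presentation list of 21 tested genes, 3 passed as higher (Tap2, Irf7 and Psmb9) and 2 as lower (Cd74 and RT1-Ba). The shares over all tested genes were 2.92% and 2.73%. Psmb9, an immunoproteasome subunit, changed by 0.36 ± 0.09 (adjusted p = 0.045), a call lost without any 1 sample. Irf7, a master factor of the interferon response, read 1061 and 613.9, 1136 and 741.6, 2391 and 2386, and 1206 and 1322, an average of 0.98 ± 0.19 (adjusted p = 0.022) that was lost without spontaneous 100% letter b or any 1 ventilated sample (adjusted p up to 0.077) and without the filter (adjusted p = 0.11). Rsad2, the antiviral protein viperin, had 2 probe sets that rose on average, by 0.75 ± 0.10 and 0.93 ± 0.13 (adjusted p = 0.0055 and 0.0053). The second of them read 545.4 and 406.4, 520.6 and 457.9, 1167 and 1175, and 711.0 and 851.8, without overlap, and passed at both levels (1.24 and 0.63).

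Class II genes gave contrary readings. Cd74, the invariant chain that escorts class II molecules, read 12667 and 12160, 9907 and 12119, 9693 and 9047, and 7000 and 7832. All ventilated samples of Cd74 were lower, with an average of -0.49 ± 0.09 (adjusted p = 0.023), which was -0.09 after quantile normalization (adjusted p = 0.38). Another probe set of Cd74 had opposite signs (-0.65 and 0.26). The call on Cd74 was also lost without spontaneous 21% letter a, ventilated 100% letter a or either ventilated 21% sample (adjusted p up to 0.089). The beta chain gene RT1-Bb had 5 tested probe sets, singled out after their values were seen because they disagreed. The brightest read 5813 and 5177, 4038 and 4212, 3889 and 4978, and 5099 and 4707, and changed by -0.03 ± 0.10 (adjusted p = 0.87). Another was listed below 0 in all 4 spontaneous samples and read 1059 and 1175 in ventilated 21% and 1445 and 1296 in ventilated 100%, so no fold is given. A further one read 53.4 and 74.2, 22.9 and 40.2, 306.9 and 345.4, and 258.7 and 289.3, higher in every ventilated sample by 1.98 ± 0.18 (adjusted p = 8.9e-04). The other 2 probe sets of RT1-Bb changed by -0.51 and -0.45. RT1 genes are highly polymorphic between rat strains, and the gene and allele that each probe set reads are uncertain.

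More chaperones passed as lower than as higher. Of 23 tested heat shock and endoplasmic reticulum chaperones, 5 passed as lower (Hspa1a, Hspb1, Hsp90ab1, Hsp90b1 and Hsph1) and 1 as higher (Hyou1). The shares over all tested genes were 2.73% lower and 2.92% higher, and the list median was -0.03. Hspa1a, the inducible cytosolic chaperone of the Hsp70 family, read 6936 and 6995 in spontaneous 21%, 8920 and 12655 in spontaneous 100%, 3965 and 3966 in ventilated 21%, and 5617 and 6154 in ventilated 100%. Every ventilated sample lay below every spontaneous one. It fell by 0.81 at 21% and by 0.85 at 100% (adjusted p = 0.017 and 0.0095), and the difference of -0.05 had a 95% interval from -0.57 to 0.48. Its average of -0.83 ± 0.11 (adjusted p = 0.0055) passed without any 1 sample, was -0.61 after quantile normalization (adjusted p = 0.0024), and was -0.33 and -1.41 within arrays with and without the lot line. Hspb1, a small heat shock protein, read 22723 and 19425, 14109 and 19386, 16530 and 15536, and 6148 and 8308, and Hsp90ab1, a cytosolic chaperone of signalling proteins, read 20266 and 17112, 12192 and 17467, 15184 and 16820, and 6113 and 7477. Both fell on average, Hspb1 by 0.80 ± 0.14 (adjusted p = 0.015) and Hsp90ab1 by 0.67 ± 0.13 (adjusted p = 0.026), with changes of -0.39 and -0.22 at 21% and -1.22 and -1.11 at 100%. After quantile normalization the averages of Hspb1 and Hsp90ab1 were -0.36 and -0.29 (adjusted p = 0.098 and 0.055). A dimmer probe set of each had opposite signs, Hspb1 0.18 and -1.03 and Hsp90ab1 -0.16 and 0.10. The call on Hspb1 was lost without ventilated 100% letter a or either ventilated 21% sample, and that on Hsp90ab1 without these, spontaneous 21% letter a or spontaneous 100% letter b (adjusted p up to 0.094).

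**Figure D3:**
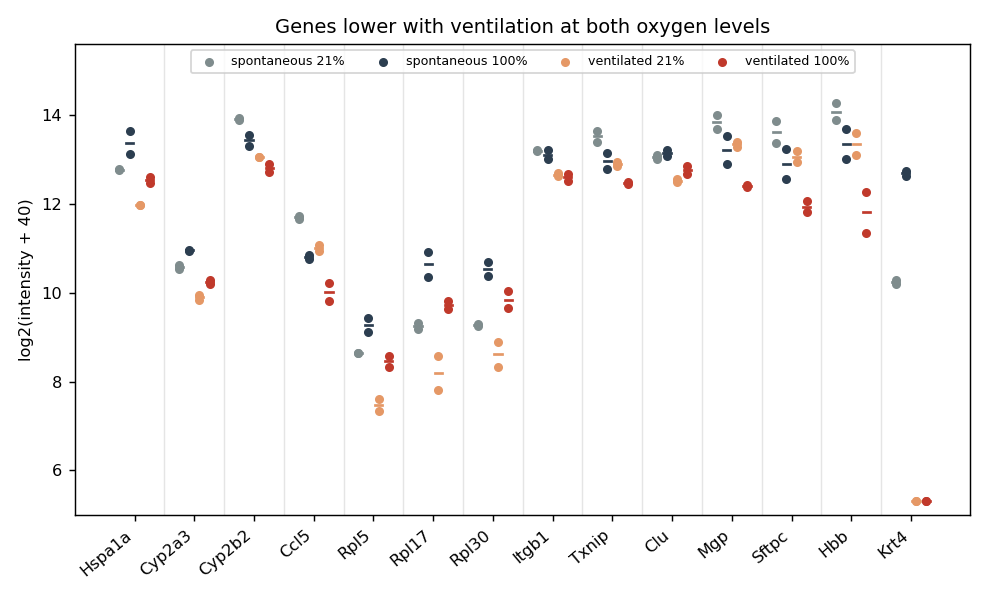
Each point is 1 sample, on the log2(intensity + 40) axis, for 14 genes whose mean was lower with ventilation at both oxygen levels, with bars at the mean of the 2 samples of a group. Hspa1a, Cyp2a3, Cyp2b2, Rpl5, Itgb1, Clu and Krt4 show no overlap between ventilated and spontaneous samples, whereas the bright genes Mgp, Sftpc and Hbb do, with the ventilated 100% samples lowest.

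Ribosomal protein genes, which encode the protein part of the cytosolic ribosome, were lower together in the values as deposited, and most of this was absent after quantile normalization. Among all tested genes 16.9% were lower at both levels and 2.73% passed as lower. Of the 35 tested ribosomal protein genes, 27 were lower at both levels and 12 of these passed on average. None was higher at both levels, and 26 lower and 0 higher were counted at an unadjusted p under 0.05. The median change was -0.41 on average, -0.20 at 21% and -0.67 at 100%, and after quantile normalization, which gives every array the same distribution of values, it was -0.03, 0.03 and -0.18, with 4 genes passing. The count of 12 was also 25 and 2 without spontaneous 100% letters a and b, 1 and 7 without spontaneous 21% letters a and b, 3 and 1 without ventilated 21% letters a and b, and 1 and 2 without ventilated 100% letters a and b. Most members are very bright: Rps29 read 20328 and 15661, 10497 and 15135, 12183 and 13886, and 6301 and 7061, and fell by 0.69 ± 0.14 (adjusted p = 0.027; -0.31 after quantile normalization, adjusted p = 0.019). The call on Rps29 was lost without spontaneous 21% letter a, without letter b of spontaneous 100%, or without any 1 ventilated sample (adjusted p up to 0.095).

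Rpl5 and Rpl17, which are dimmer, still passed after that normalization. Rpl5, a protein of the large subunit that also binds Mdm2, read 360.0 and 362.6 in spontaneous 21%, 645.5 and 517.0 in spontaneous 100%, 120.6 and 155.6 in ventilated 21%, and 343.7 and 280.1 in ventilated 100%. All ventilated samples were below all spontaneous ones. Rpl5 fell by 1.18 at 21% and by 0.82 at 100% (adjusted p = 0.011 and 0.025), and its average (adjusted p = 0.0074) was -1.07 after quantile normalization (adjusted p = 0.0051) and passed without any 1 sample. Within arrays with and without the lot line it changed by -0.17 and -1.80. Rpl17 read 600.2 and 546.0, 1272 and 1901, 342.6 and 185.4, and 861.5 and 749.5, with an average of -0.99 ± 0.20 (adjusted p = 0.025) that was lost without the filter (adjusted p = 0.11), without either ventilated 100% sample, or without spontaneous 21% letter a, spontaneous 100% letter b or ventilated 21% letter b (adjusted p up to 0.084). Within arrays with the lot line Rpl17 changed by 0.53. Rpl21 showed how far the probe sets of 1 gene can differ. Its brightest read 9961 and 10435, 8158 and 10324, 9430 and 9632, and 6303 and 6598, and did not pass (-0.30, adjusted p = 0.084, and 0.01 after quantile normalization), while a dimmer one read 801.3 and 754.1, 1354 and 1613, 337.5 and 265.8, and 937.2 and 757.2 and fell by 1.02 ± 0.13 (adjusted p = 0.0039). Ribosomal protein genes have many near-identical processed pseudogenes, so the gene behind each probe set is uncertain.

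**Figure D4:**
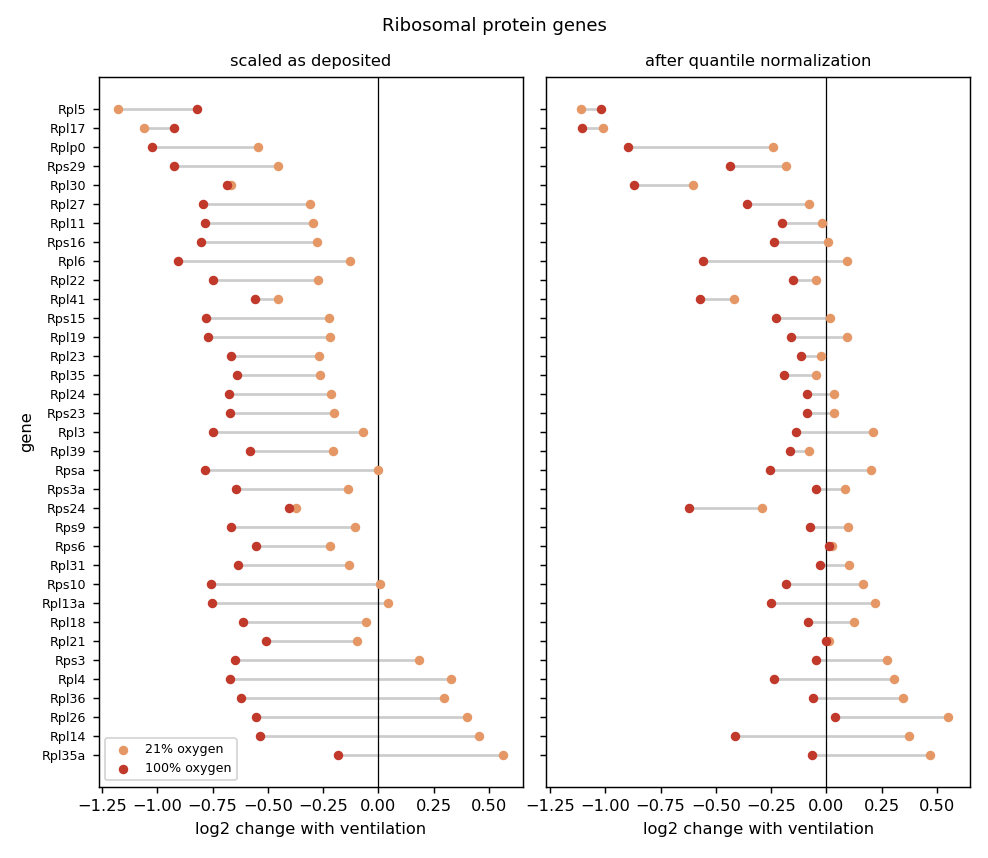
The 35 tested ribosomal protein genes are listed with their log2 change with ventilation at 21% oxygen (orange) and 100% oxygen (red), for values as deposited on the left and after quantile normalization on the right. On the left most red points lie below -0.5 and most orange points between -0.5 and 0, while on the right most genes lie near 0 and Rpl5, Rpl17 and Rpl30 lie lowest at 21% oxygen.

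Brightness and loss under quantile normalization also went together among all members that passed as lower. Of the 186 probe sets that passed as lower with the same sign, 128 (68.8%) were among the brightest 10% of tested probe sets, and 39 of these 128 (30.5%) still passed as lower after quantile normalization, against 53 of the other 58 (91.4%). Of the 191 that passed as higher, 5 were among the brightest 10% and 107 (56.0%) still passed. Quantile normalization gave 130 higher and 121 lower. The brightest 10% were set apart after the values had been seen.

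Several bright genes of the alveolar wall and matrix were among those that fell. Of 11 tested genes of alveolar type 2 cells, which make surfactant, 3 passed as lower (Sftpb, Sftpc and Lyz2) and 0 as higher. At an unadjusted p under 0.05 this list held 4 and 0, and 1 member passed on average with opposite signs. The list median was -0.19 on average, -0.41 at 21% and -0.21 at 100%. After quantile normalization these medians were 0.11, -0.20 and 0.42. Among all tested genes 2.73% passed as lower and 2.92% as higher, shares that also apply to the alveolar type 1 and matrix counts that follow. Surfactant protein C, Sftpc, read 14817 and 10627, 6020 and 9660, 7784 and 9252, and 3543 and 4261, with an average of -0.77 ± 0.17 (adjusted p = 0.035), -0.56 at 21% and -0.97 at 100%. Ventilated 21% overlapped spontaneous 100% and lay below spontaneous 21%, and ventilated 100% was lowest. The call on Sftpc was kept only without spontaneous 21% letter b or spontaneous 100% letter a (adjusted p otherwise up to 0.12), and within arrays without the lot line it changed by 0.15. Ager, a marker of alveolar type 1 cells, was the 1 of 6 tested genes of that cell that passed (-0.56 ± 0.11, adjusted p = 0.024, and 0.075 after quantile normalization). It was lost without letter a of spontaneous 21%, spontaneous 100% letter b, ventilated 100% letter a or either ventilated 21% sample (adjusted p up to 0.088). In the matrix list 4 of 24 tested genes passed as lower (Bgn, Mgp, Tnc and Col3a1) and 0 as higher, with 6 and 1 at an unadjusted p under 0.05. Biglycan, Bgn, a small proteoglycan, read 8075 and 8876, 7007 and 7195, 5128 and 4993, and 5456 and 6619 without overlap, and fell by 0.49 ± 0.09 (adjusted p = 0.019). A second probe set of Bgn went opposite ways at the 2 levels (-1.07 and 1.11). After quantile normalization the average of Bgn was -0.26 (adjusted p = 0.15), and it was lost without spontaneous 100% letter b, ventilated 100% letter a or either ventilated 21% sample (adjusted p up to 0.076). Col3a1, a fibrillar collagen chain, had 2 probe sets that fell, of which 1 read 8658 and 8239, 7678 and 8980, 4627 and 4396, and 7067 and 7009, a change of -0.90 at 21% and -0.24 at 100% (interaction adjusted p = 0.021). The average of that Col3a1 probe set was -0.57 ± 0.08 (adjusted p = 0.0064) and -0.21 after quantile normalization (adjusted p = 0.064).

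Itgb1, the beta subunit of the main matrix-binding integrins, read 9393 and 9252 in spontaneous 21%, 8232 and 9429 in spontaneous 100%, 6586 and 6279 in ventilated 21%, and 5832 and 6477 in ventilated 100%. All ventilated samples were lower, by 0.53 at 21% and 0.52 at 100% (changes of -0.53 and -0.52, adjusted p = 0.023 and 0.017), and the interval of the difference ran from -0.37 to 0.39. Within arrays with and without the lot line Itgb1 changed by -0.68 and -0.45. Its average of -0.53 ± 0.08 (adjusted p = 0.010) was -0.25 after quantile normalization (adjusted p = 0.044) and was lost without ventilated 21% letter b (adjusted p = 0.057). Txnip, the thioredoxin-interacting protein that restrains glucose uptake, read 12760 and 10741, 7014 and 9025, 7371 and 7848, and 5591 and 5703, an average of -0.56 ± 0.11 (adjusted p = 0.022) and of -0.28 after quantile normalization (adjusted p = 0.034). Without the filter Txnip was at adjusted p = 0.077, and its call was lost without spontaneous 21% letter a or any 1 ventilated sample (adjusted p up to 0.083). Clusterin, Clu, a secreted chaperone, read 8783 and 8235, 8568 and 9503, 6012 and 5692, and 6466 and 7313 without overlap, and passed at both levels (-0.54 and -0.39, adjusted p = 0.022 and 0.040). After quantile normalization the average of Clu was -0.13 (adjusted p = 0.26), and it was lost without spontaneous 21% letter a, ventilated 100% letter a or either ventilated 21% sample (adjusted p up to 0.078).

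Several transport, signalling and growth genes of moderate level rose on average. Lrrc59, a ribosome-binding protein of the endoplasmic reticulum, read 1648 and 1684, 1542 and 1422, 2602 and 2376, and 2347 and 2500, with no overlap, and a second probe set of it also passed on average. Its changes were 0.57 at 21% and 0.70 at 100% (adjusted p = 0.018 and 0.0059), and its average of 0.63 ± 0.08 (adjusted p = 0.0045) passed without any 1 sample and was 0.54 and 0.73 within arrays with and without the lot line. Slc11a2, the divalent metal transporter that takes up iron, had a probe set at 128.1 and 123.6, 113.1 and 76.1, 479.9 and 541.6, and 297.7 and 414.4. That probe set of Slc11a2 rose by 1.73 at 21% and 1.56 at 100% (adjusted p = 0.0046 and 0.0050) and passed without any 1 sample, and its brighter probe set changed by 0.62 ± 0.12 (adjusted p = 0.025), a call lost without spontaneous 21% letter a, ventilated 100% letter a or either ventilated 21% sample (adjusted p up to 0.089). Lypd8l1 read 869.9 and 857.0, 978.5 and 940.3, 1688 and 2109, and 1510 and 1438 without overlap, with 1.09 at 21%, 0.60 at 100% and an average of 0.85 ± 0.10 (adjusted p = 0.0029), which also passed without any 1 sample.

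Prkacb, a catalytic subunit of the cyclic AMP-dependent protein kinase, read 1263 and 1299, 1178 and 960.4, 1851 and 1839, and 1621 and 1542, all ventilated samples higher. It passed at both levels (0.51 and 0.55, adjusted p = 0.038 and 0.020), and its average of 0.53 ± 0.09 (adjusted p = 0.017) was lost without spontaneous 100% letter b, ventilated 100% letter a or either ventilated 21% sample (adjusted p up to 0.064). Slc16a1, a lactate and pyruvate transporter, read 404.5 and 458.7, 317.6 and 173.1, 634.9 and 662.5, and 776.0 and 699.3 without overlap, a change of 0.55 at 21%, which missed the threshold (adjusted p = 0.18), and 1.49 at 100%. Its average of 1.02 ± 0.17 (adjusted p = 0.014) was lost without either ventilated 21% sample (adjusted p up to 0.061) and without the filter (adjusted p = 0.067). Mcm6, a subunit of the replicative helicase, had 2 of 3 probe sets that passed on average, and the one that passed at both levels read 277.9 and 338.4, 236.1 and 233.0, 563.0 and 488.0, and 390.1 and 430.5 (0.70 and 0.71, adjusted p = 0.041 and 0.026). The average of that Mcm6 probe set, 0.71 ± 0.13 (adjusted p = 0.021), was lost without spontaneous 21% letter a, spontaneous 100% letter b or either ventilated 21% sample (adjusted p up to 0.083). Of 17 tested proliferation genes 1 passed as higher (Top2a) and 0 as lower, beside 2.92% and 2.73% of all tested genes. At an unadjusted p under 0.05 the list held 4 and 0.

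In some lists no member passed with a shared sign, where 2.92% of all tested genes passed as higher and 2.73% as lower, so that lists this short could hold few. Among 28 tested genes of oxidative phosphorylation, 17 of endothelium and vascular tone and 7 of the circadian clock, limma called 0 with the same sign, and at an unadjusted p under 0.05 there were 1, 0 and 0 with the same sign. Their medians went opposite ways at the 2 oxygen levels: 0.48 and -0.62 for oxidative phosphorylation, -0.36 and 0.43 for endothelium, and -0.23 and 0.32 for the clock.

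Genes of tissues other than the air space also moved, and their part in the results above was not tested. The largest fall of a named gene was that of Krt4, a keratin of squamous epithelium such as that of the oesophagus or pharynx. Krt4 read 1140 and 1214 in spontaneous 21%, 6289 and 6826 in spontaneous 100%, and was listed below 0 in all 4 ventilated samples, so no fold is given. These 4 values were set to 0 and so had no spread. The adjusted p of 1.4e-07 (limma) rests in part on that and on the offset. The summed level of the 7 squamous genes on the array was 4138 to 4662 in spontaneous 21%, 11308 to 11773 in spontaneous 100%, 2863 to 4000 in ventilated 21% and 1631 to 2603 in ventilated 100%, with Krt1 at 0 in every group. The 20 skeletal muscle genes summed to 8288 to 8549, 31219 to 32199, 10403 to 10755 and 4556 to 4567 in the same order, with the muscle regulators Myod1 and Myog at 0 in every group. Of 15 tested muscle genes, 4 passed as lower with the same sign, beside 2.73% of all tested genes, and 6 passed on average with opposite signs. For Myl11 (-0.40 at 21%, -4.58 at 100%) nearly all of the change lay at 100% oxygen. Tnni2, a fast muscle troponin, read 78.3 and 116.5, 1397 and 1490, and 68.7 and 101.3, and was listed below 0 in both ventilated 100% samples, so no size is given for it there. A second probe set of Myl11 changed by 0.81 at 21%. Car3, a carbonic anhydrase of muscle and fat, read 713.7 and 974.1, 1193 and 1190, 580.4 and 389.7, and 192.9 and 264.9 without overlap, an average of -1.49 ± 0.17 (adjusted p = 0.0027). The 16 T and natural killer cell genes summed to 4129 to 4382, 3462 to 3843, 33633 to 35564 and 3435 to 3590, so they were high in ventilated 21% alone. Of 11 tested, 1 passed with the same sign (Cd8b, 2.17 at 21% and 0.37 at 100%) and 6 with opposite signs. The 6 blood cell genes summed to 36609 to 43868, 29437 to 37738, 27645 to 33702 and 17977 to 20688, and the globin Hbb fell by 1.14 ± 0.24 on average (adjusted p = 0.028), a call lost without spontaneous 21% letter a, spontaneous 100% letter b, ventilated 100% letter a or either ventilated 21% sample (adjusted p up to 0.093). The 17 heart muscle genes summed to 17418 to 17693, 32012 to 34110, 20776 to 21447 and 17276 to 18664, and the 9 fat genes to 11595 to 11941, 10885 to 11067, 20691 to 22108 and 8224 to 9910.

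**Figure D5:**
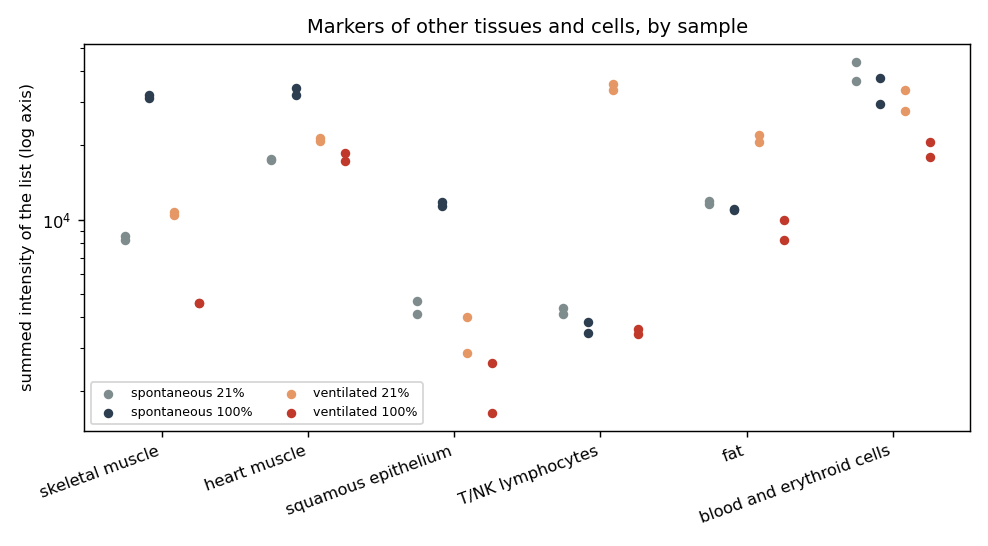
Each point is 1 sample, and the log y axis gives the summed intensity of the marker genes of 6 tissues or cell types. Spontaneous 100% is highest for skeletal muscle, heart muscle and squamous epithelium, and ventilated 21% is highest for T and natural killer lymphocytes and for fat. Ventilated 100% is lowest for skeletal muscle, squamous epithelium, fat and blood.

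The rule draws a sharp line through a continuous range. Just inside it, among genes that passed on average, lay Rpsa (0.00 at 21%, -0.79 at 100%), Cldn7 (0.01 and 1.35) and Cd200 (0.88 and 0.01), and just outside it Slc1a3 (-1.18 and 0.00), Atp2a1 (0.00 and -2.66) and another probe set of Fos (-0.01 and 1.60). Of the 49 probe sets that passed at both levels 33 carried a single gene symbol, and the rest carried several or none and are not named here.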

How the data were processed

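Whole rat lung RNA was measured on 9 arrays of 8 samples in 4 groups of 2. The deposited values are linear intensities, 1 per probe set, that the authors scaled to nearly the same 2% trimmed mean per array (800.5 to 801.1 in the files); the tool is not given in the sources used here. Values below 0 were set to 0 and log2(intensity + 40) was taken of the deposited intensities. Of 8740 non-control probe sets, the lowest 40% by mean over all samples were not tested, which left 5244. limma 3.58.1 in R 4.3.3 was fitted to 4 group means with a variance trend and 4 residual degrees of freedom, and Benjamini-Hochberg adjustment ran over all 5244. It was tested on simulated data. Symbols came from the platform annotation: 7006 probe sets had 1, 308 several and 1426 none, and 6985 symbols were updated by gene number. A gene's value is that of its brightest probe set, and disagreeing probe sets are stated for genes described with sample values.

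The members, gene lists and tests were chosen with earlier results of these data known. Named genes were the 12 in each direction with the largest change at the oxygen level where it was smaller, among genes called on average with the same sign, up to 4 called genes per list, or the 2 of smallest p where none was called, 3 on each side of the sign rule, and every gene called at both levels; part of them are named. Scgb1a1, S100a9, Mmp8, Mmp9, Hyou1, RT1-Ba and RT1-Bb's disagreeing probe sets were added after their values were seen. Alternatives changed normalization, offset, filter, arrays, blocks, trend and the samples used.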

Additional observations from a re-analysis of the deposited data

Results flagged for a closer look

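For 21 named results the ventilation change differed between oxygen levels by limma's interaction test, although its sign was shared. The values below are the change at 100% oxygen minus the change at 21% oxygen on the log2 scale, with the Benjamini-Hochberg adjusted p. The lot line splits the arrays in the same way as this interaction except among the ventilated 100% arrays, so an effect of that line and a difference between oxygen levels cannot be told apart for most of it. With the lot line as a block 151 probe sets passed, in place of 1439.

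Among transcription factors the change was larger at 100% for Egr1 (1.23, adjusted p = 0.0024), Nr4a1 (2.67, adjusted p = 0.0014), Fos (0.99, adjusted p = 0.0051), Myc (0.98, adjusted p = 0.018), Atf3 (0.90, adjusted p = 0.022) and Nfkb1 (0.98, adjusted p = 0.011). Crem was the exception, larger at 21% with 2 of its probe sets (-0.96 and -1.09, adjusted p = 0.0062 and 0.017). Krt8 (0.64, adjusted p = 0.018), Krt19 (0.83, adjusted p = 0.0078), F3 (1.16, adjusted p = 0.0017) and the glucose transporter gene Slc2a1 (0.90, adjusted p = 0.025) also rose more at 100%. RatNP-3b (-2.72, adjusted p = 0.0031), Cd8b (-1.79, adjusted p = 0.0067) and the brighter Rsad2 probe set (-1.06, adjusted p = 0.0079) rose more at 21%.

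Of the genes that fell, Car3 (-1.46, adjusted p = 0.016), Myl11 (-4.18, adjusted p = 1.5e-04), Hsp90ab1 (-0.89, adjusted p = 0.041) and Ndufaf3 (-1.63, adjusted p = 0.033) were lower by more at 100%. The 2 other tested probe sets of Ndufaf3 changed on average by 0.49 and 0.13. For Krt4 (-2.44, adjusted p = 6.6e-04) all ventilated samples were listed below 0, so the value is only the difference between the spontaneous groups and does not show a larger fall at 100%. Its p rests in part on ventilated values without spread. Tnni2 (-5.08, adjusted p = 1.3e-04) was listed below 0 in ventilated 100%, so its size and its p depend on the offset. A second Nr4a1 probe set, with opposite signs at the 2 levels, is not among these 21.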

How the results depend on the processing

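Probe sets called on average were 247 with no filter, 258 with only the s2A array of ventilated 100% letter b, 245 with no variance trend, 5 with ventilation alone and no oxygen term, and 128 to 518 with 1 sample left out, in place of 477. Those with the same sign (377) were 251 after quantile normalization, 166, 193, 183 and 5 under those 4 settings, and 86 to 421. Those called at both levels (49) were 30 with no filter, 4 with the lot line as a block, and 15 to 47, and interaction calls fell from 1439 to 151 with the lot line. Lower ribosomal genes (12) were 4 after quantile normalization, 1 with no filter, 2 with only s2A, 21 with only s2B, 2 with no trend, 22 with the lot line, 0 with ventilation alone, and 1 to 25. Higher immediate early genes (9) were 0 with ventilation alone and 4 to 8. The brightest Rpl21 probe set turned from -0.30 to 0.01 after quantile normalization. The cause of these shifts was not tested. With the letter as a replicate block the counts were 308 on average, 251 with the same sign and 7 ribosomal. Same-letter samples did not deviate together over all tested probe sets (r between -0.128 and 0.066), and the main fit did not pair them. A pairing that touched few genes would not show in these correlations. The lot-line fit took the 2 arrays of ventilated 100% letter b as separate, since their correlation could not be estimated. Only the ventilated 100% group holds arrays with and without the line, so the lot term rests on that group's arrays alone. Fewer calls in that fit therefore do not by themselves show an effect of the line. Of 90 named calls 34 passed under every alternative but ventilation alone.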
